A study of Mus musculus with 11 samples.

Results

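PU.1 occupancy was described at 9 genes that encode the core of the NF-kappaB pathway: the kinase subunits Ikbkb and Chuk, the NF-kappaB subunits Nfkb1, Nfkb2, Rela, Relb and Rel, and the inhibitors Nfkbia and Tnfaip3. They were chosen by name out of 22359 protein-coding genes, and each was taken with 10 kb on either side of its gene body on the mm9 assembly of the mouse genome. The labels give 11 libraries in all, read from chromatin of murine erythroleukemia (MEL) cells and of ES-EP, erythroid progenitors that were grown out of embryonic stem cells. MEL cells are a leukemic erythroblast line; here they came from a single clone, numbered 4 in the labels, that stably carries Gata-1 fused to ER, the ligand-binding part of the estrogen receptor. ES-EP are non-leukemic progenitors without that fusion, grown with Epogen, hIGF-1, dexamethasone and murine SCF, whereas MEL cells were kept in serum with puromycin. In each cell type PU.1 was immunoprecipitated (ChIP) with the same antibody, T-21, from 2 chromatin preparations, A and B, each read as 2 libraries. Input DNA, taken without immunoprecipitation, was read in 1 library for MEL cells and in 2 for ES-EP. Cell type, clone, transgene and growth medium differ together between the groups, so they cannot be told apart. ChIP reads do not measure which genes a cell expresses, so the labelled cell types were not checked against markers.

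The ChIP libraries held 2054667 to 4840424 reads on the nuclear chromosomes and the input libraries 2437650 to 5051235, with 1.59 to 9.0% of reads at a repeated position. Reads were counted in 500 bp windows after shifting each 5' end towards the fragment centre by 70 bp for MEL cells and by 65 bp for ES-EP. A window was called where the ChIP reads exceeded local input at an adjusted p below 0.05 in an exact Poisson test and lay above input in both preparations. That test covers the counting error of the ChIP reads only, since it takes the input rate as fixed. It called 0.677% of 3922239 windows for MEL cells and 0.466% of 3972385 for ES-EP. The spread between preparations was handled separately, by limma on the reads within 500 bp of each transcription start site (TSS) and on called windows.

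In resting cells, NF-kappaB dimers built from the Rel-homology proteins are held in the cytoplasm by IkB proteins. A kinase complex containing the products of Ikbkb and Chuk phosphorylates IkB, and the Chuk product phosphorylates the Nfkb2 precursor. The dimers then enter the nucleus and bind kappaB sites in their target genes. Several of those targets, among them Nfkbia, Tnfaip3, Nfkb1, Nfkb2, Relb and Rel, encode parts of the pathway itself. PU.1, a member of the Ets family, regulates transcription in myeloid, lymphoid and immature erythroid cells and recognises a purine-rich element around the core GGAA. The comparison asked where PU.1 lay at these genes, and whether occupancy differed between leukemic and normal erythroid cells.

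A called window lay within 2 kb of a TSS at 9 of the 9 genes in MEL cells and at 8 of 9 in ES-EP, where Relb was the exception. With the window grid moved by 250 bp the counts were 8 in MEL cells, without Relb, and 9 in ES-EP, so the Relb call depends on where the windows fall. Among protein-coding genes as a whole the share with such a window was 41.1% for MEL cells, 24.6% for ES-EP and 20.3% for both. Over the whole loci, which hold 915 windows, 34 windows were called in MEL cells, 24 were called in ES-EP, 15 in both and 43 in either. Of all 35332 windows of the genome called in either cell type, 9721 were called in both. Over the genome 0.677% of the windows tested were called in MEL cells and 0.466% in ES-EP. This is not a like comparison. The 915 count every window of loci cut around genes, whereas the genome shares count windows with a ChIP read, near genes or not. The share over all gene loci was not counted. Of the 43, 22 lay within 2 kb of a TSS of the gene and 21 elsewhere. Within 2 kb of a TSS of any gene lay 27 of the 43, beside 14505 of the 35332 called windows. These counts depend on which preparation is used. When each preparation had to pass the test alone, 6 genes kept a promoter window in MEL cells (Ikbkb, Nfkb1, Rela, Rel, Nfkbia and Tnfaip3) and 5 in ES-EP (Ikbkb, Nfkb1, Nfkb2, Rel and Tnfaip3), with 13 and 9 windows. Of all genes, 13.8% and 8.81% kept one. Preparation B gave most of the MEL calls and preparation A most of the ES-EP calls: 13 windows were called in MEL cells without B, and 10 in ES-EP without A.

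**Figure D1:**
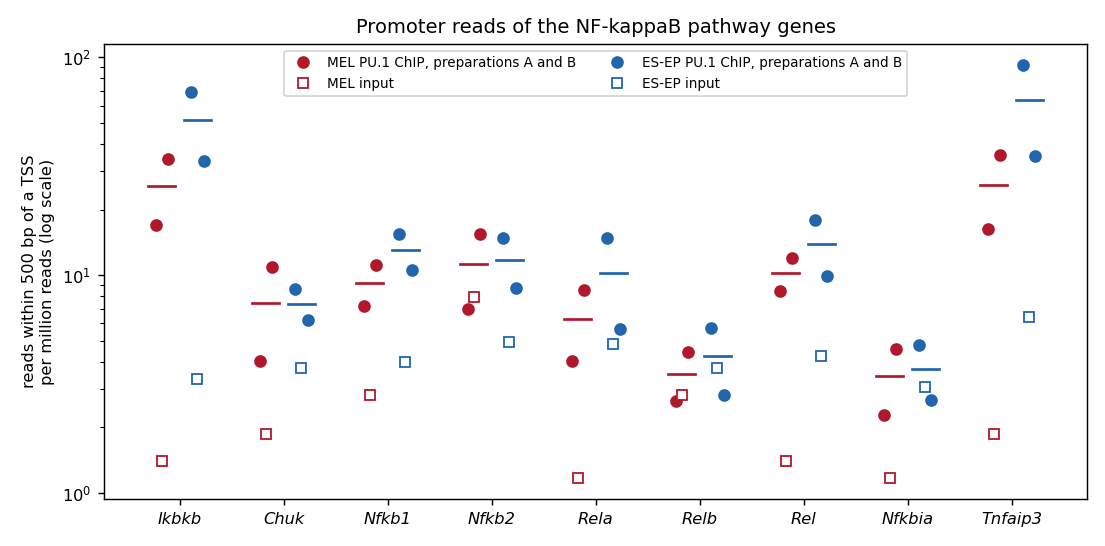
Reads within 500 bp of any TSS of each gene in CPM (reads per 1000000 reads of the preparation), on a log axis. Filled points are the 2 ChIP preparations of MEL cells (red) and ES-EP (blue), short lines their mean, and open squares the input; Ikbkb and Tnfaip3 stand above the other 7 genes in both cell types, from 16.3 CPM upward in every preparation.

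Ikbkb, which encodes the catalytic subunit that phosphorylates IkB in the canonical branch, and Tnfaip3, which encodes a ubiquitin-editing enzyme that shuts off signalling upstream of the kinase, carried the most reads. At Ikbkb (chr8:23769684-23817061, minus strand), 97 ChIP reads of MEL preparation A and 238 of preparation B fell within 500 bp of a TSS, against 6 in input. In ES-EP, 434 and 238 reads fell there, against 25 in input. Scaled to depth, the MEL preparations stood at 17.0 and 34.1 CPM (input 1.40) and the ES-EP preparations at 69.1 and 33.5 CPM (input 3.34). Every ChIP preparation stood above its input, and the 2 cell types overlapped. The limma log2 difference from input was 3.99 ± 0.80 (SE) in MEL cells (adjusted p = 0.000638) and 3.84 ± 0.63 in ES-EP (adjusted p = 1.21e-06). With the 2 ES-EP input libraries summed to 1 sample the values were 3.98 and 3.83, and neither passed (adjusted p = 0.135 and 0.126).

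The reads of Ikbkb formed a narrow peak on its 5' end, and the same 100 bp bin, 0 to 100 bp downstream of the TSS, was the highest in all 4 preparations. The peak spanned 2 neighbouring windows that were called in both cell types. The window at chr8:23817001-23817500 held 49 and 126 ChIP reads against 1 input read in MEL cells, a depth-scaled ratio of 59.0 with an exact 95% interval of 10.5 to 2345. In ES-EP it held 177 and 129 against 6, a ratio of 28.5 (13.0 to 78.4). With at most 1 read per position, strand and library, 156 ChIP reads were left there in MEL cells and 244 in ES-EP. Among all 35332 windows called in either cell type, the 2 Ikbkb windows ranked 239 and 259 by depth-scaled ChIP reads. An 8-base PU.1-type word, GAGGAAGT, lies at chr8:23817024-23817031, in the 5' untranslated region and 22 bp from the summit of this window. The neighbouring window, chr8:23816501-23817000, held more reads in ES-EP preparation A (39.9 against 28.2 CPM) and fewer in the other 3 preparations. Its summit, chr8:23816991, lies near the edge shared with the first window, whose summit is chr8:23817006. It was not shown to be a separate peak. No GGAA core on either strand lies in the 30 bases centred on chr8:23816991 (chr8:23816976-23817005). The 30 bases around the word, chr8:23817013-23817042, and those at that summit are printed on the minus strand to show what lies under the Ikbkb peak, the word in capitals.
Ikbkb 5' untranslated region: aggaagtgtttGAGGAAGTggcgctgggct
Ikbkb summit: tggggaccccgagttttcatgtcctcagcg

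At Tnfaip3 (chr10:18720716-18735463, minus strand) the promoter regions held 93 and 248 ChIP reads against 8 in MEL input, and 581 and 250 against 48 in ES-EP input. That corresponds to 16.3 and 35.5 CPM for MEL cells (input 1.87) and to 92.4 and 35.2 CPM for ES-EP (input 6.41). ES-EP preparation A was the highest of the 4, and ES-EP preparation B was close to MEL preparation B. The log2 difference from input was 3.60 ± 0.76 in MEL cells (limma adjusted p = 0.00171) and 3.12 ± 0.63 in ES-EP (adjusted p = 0.000158). With the ES-EP inputs summed neither passed (adjusted p = 0.142 and 0.321). Nearly all of these reads came from the window chr10:18735001-18735500, with 81 and 230 reads against 2 in MEL cells and 548 and 230 against 28 in ES-EP. Its ratio to input was 52.4 (14.4 to 435) in MEL cells and 15.6 (10.7 to 23.6) in ES-EP. These values use all reads. With at most 1 read per position, strand and library, 279 ChIP reads were left in MEL cells and 545 in ES-EP. By depth-scaled ChIP reads this window ranked 88 among the 35332 called windows, the highest rank of any window of the 9 genes.

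The summit at Tnfaip3 lay 70 bp downstream of the TSS, in the 5' untranslated region, and the bin from 0 to 100 bp was the highest in all 4 preparations. The word GAGGAAGT does not occur in that window, and no GGAA core on either strand lies in the 30 bases centred on the summit, chr10:18735131-18735160. Such a core does lie in the 30 bases at the strongest promoter summits of Chuk, Nfkb1, Nfkb2, Rela and Nfkbia, but not at those of Relb and Rel. How often other 30-base stretches hold such a core was not counted. A match to the kappaB consensus, the 10-base sequence bound by NF-kappaB itself, lies 78 bp upstream of the summit at chr10:18735219-18735228. It is printed within chr10:18735194-18735253. The match itself ends in TTCC, the core on the other strand, and further cores follow it in the printed stretch. Both stretches are printed to show what lies under the strongest peak, the kappaB match in capitals; the first is on the minus strand and the second on the plus strand.
Tnfaip3 summit: cggagccggaggcggagcggtgagccaggc
Tnfaip3 kappaB match: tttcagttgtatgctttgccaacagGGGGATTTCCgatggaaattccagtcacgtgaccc

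**Figure D2:**
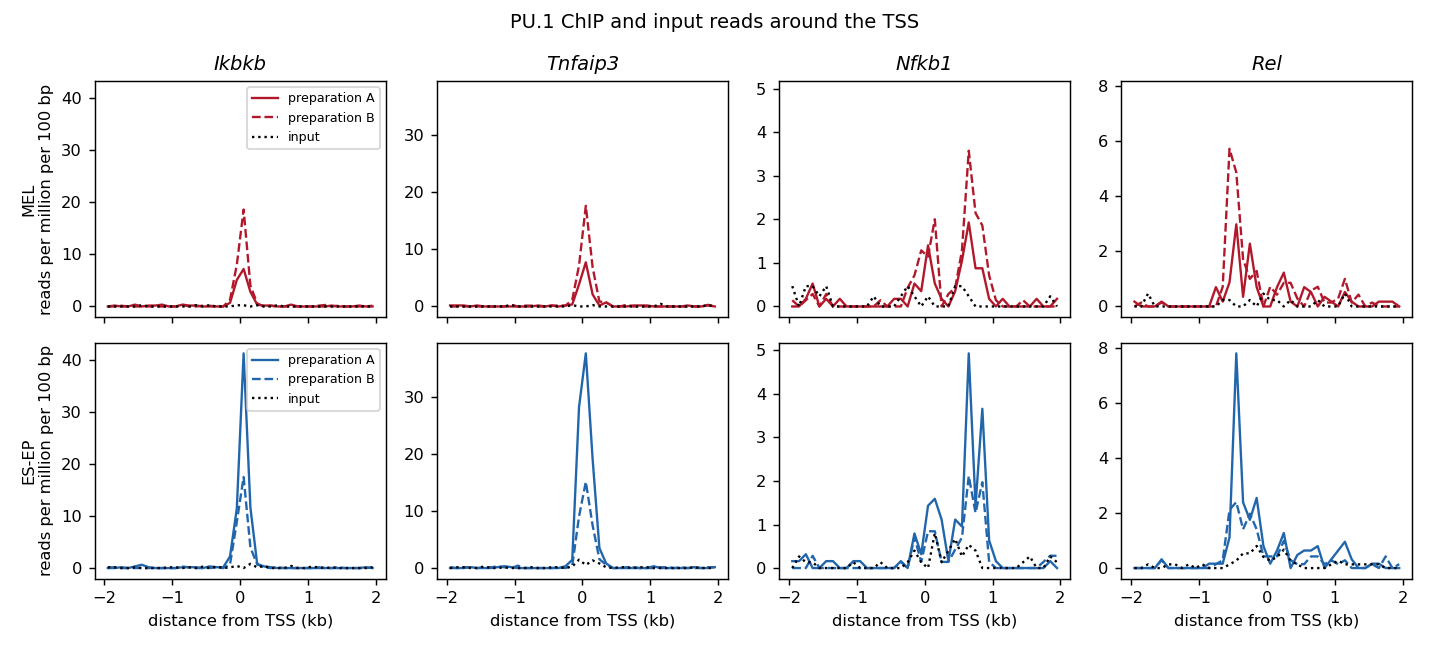
ChIP reads in CPM in 100 bp bins against the distance from the TSS nearest the strongest promoter window, for MEL cells (top, red) and ES-EP (bottom, blue), with preparation A solid, preparation B dashed and input dotted. Ikbkb and Tnfaip3 have a single peak 0 to 100 bp downstream of the TSS, Nfkb1 has its highest bin at 600 to 700 bp downstream, and Rel has its highest bin upstream.

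Chuk, which encodes the catalytic subunit that acts on the Nfkb2 precursor, carried fewer reads than Ikbkb. Its promoter regions held 23 and 76 ChIP reads against 8 in MEL input and 54 and 44 against 28 in ES-EP input. MEL preparation B stood apart from preparation A, at 10.9 against 4.04 CPM. The difference from input did not pass the limma test in MEL cells (log2 1.75 ± 0.74, adjusted p = 0.206) or in ES-EP (0.93 ± 0.59, adjusted p = 0.598). The window over its 5' untranslated region, chr19:44181501-44182000, was called in both cell types, with ratios of 4.61 (2.03 to 12.9) in MEL cells and 2.11 (1.31 to 3.55) in ES-EP. The other windows called at the Chuk locus lay in a Chuk intron and at the TSS of the downstream neighbour Erlin1.

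Nfkb1 (chr3:135247619-135354511, minus strand) encodes the precursor of the p50 subunit. It had 7 called windows in MEL cells, the most of the 9 genes, and 5 in ES-EP, as many as Nfkb2. Its locus is also the longest of the 9, with 254 of the 915 windows. The Nfkbia locus has 46 windows, of which 4 were called in MEL cells. At an adjusted p below 0.01 Nfkb1 kept 4 MEL windows, as many as Nfkb2, Rel and Nfkbia. Of the Nfkb1 windows, 2 were called in both cell types. The first of the 2, chr3:135353501-135354000, lies in an intron, with its summit 644 bp downstream of the TSS. It held 28 and 67 ChIP reads against 3 in MEL cells and 72 and 44 against 8 in ES-EP, ratios of 10.7 (3.55 to 52.7) and 8.12 (3.98 to 19.2). The bin 600 to 700 bp downstream of the TSS was the highest in all 4 preparations.

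This intronic site also contains the amplicon that the study named NFkB in its list of qChIP primers. The primer pair matched the genome at a single place, chr3:135353624-135353720, a product of 97 bp. The 500 bp around its centre held 24 and 63 ChIP reads against 1 input read in MEL cells, a ratio of 29.3 (5.13 to 1172), and 68 and 39 against 7 in ES-EP, a ratio of 8.56 (4.01 to 21.8). The primers are printed because they place the assayed site inside the called window.
NFkB forward primer: ttcttaggagctgggaagggcttt
NFkB reverse primer: tgcacagccagatttcaccaaagg

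The second shared Nfkb1 window, chr3:135271001-135271500, lies deep in the gene on a coding exon, where the annotation also starts another transcript. It held 15 and 29 ChIP reads against 0 in MEL input. With the floor of 3 counts in place of that 0 the ratio was 4.95. The exact interval from the reads themselves had a lower limit of 3.86 and no upper limit. In ES-EP the window held 52 and 44 against 4, a ratio of 13.4 (5.08 to 50.3). ES-EP was the higher cell type in both preparations, but the limma difference did not pass (log2 -1.09 ± 0.68, adjusted p = 0.36). The exon carries GAGGAAGT 30 bp from the summit, starting 5 bases after the splice site.

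Nfkb2 (chr19:46379227-46386580, plus strand) encodes the precursor of the p52 subunit and is the closest relative of Nfkb1. Its exon that aligns with the Nfkb1 exon carries the same word, also 5 bases after the splice site, and the window over it, chr19:46383001-46383500, was called in MEL cells and not in ES-EP. Over the first 35 bases of both exons, 25 bases (71.4%) are identical, and the 12 residues read from the start of the word hold 4 lysines or arginines in Nfkb1 and 5 in Nfkb2; this basic run is the nuclear localization signal at the end of the Rel homology region. Both stretches are printed on the coding strand, with the word in capitals; the first 21 bases of each belong to the intron before the exon. The pair was picked out after the values were seen.
Nfkb1 exon, chr3:135271221-135271280, minus strand: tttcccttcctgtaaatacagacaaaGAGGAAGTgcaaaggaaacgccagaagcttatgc
Nfkb2 exon, chr19:46383098-46383157, plus strand: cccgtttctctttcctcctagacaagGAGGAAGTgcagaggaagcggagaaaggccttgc

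In the 500 bp centred on the word, Nfkb1 held 15 and 29 reads in the MEL preparations and 52 and 44 in those of ES-EP. Nfkb2 held 9 and 27 in the MEL preparations, 4 and 3 in those of ES-EP, and 4 input reads in either cell type. At the Nfkb1 exon all 4 preparations lay well above input. At the Nfkb2 exon the MEL preparations stood at 1.58 and 3.86 CPM against 0.935 in input, and the ES-EP preparations, at 0.636 and 0.423 CPM, lay on either side of their input at 0.534. The limma difference between the cell types in the called Nfkb2 window did not pass (log2 1.52 ± 0.71, adjusted p = 0.187). It passed with median-ratio scaling, which moved the median of all called windows from -0.17 to 0.11. Calls higher in MEL cells then rose from 1502 to 3588 over all called windows. The Nfkb2 window entered this test through its call in MEL cells.

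**Figure D3:**
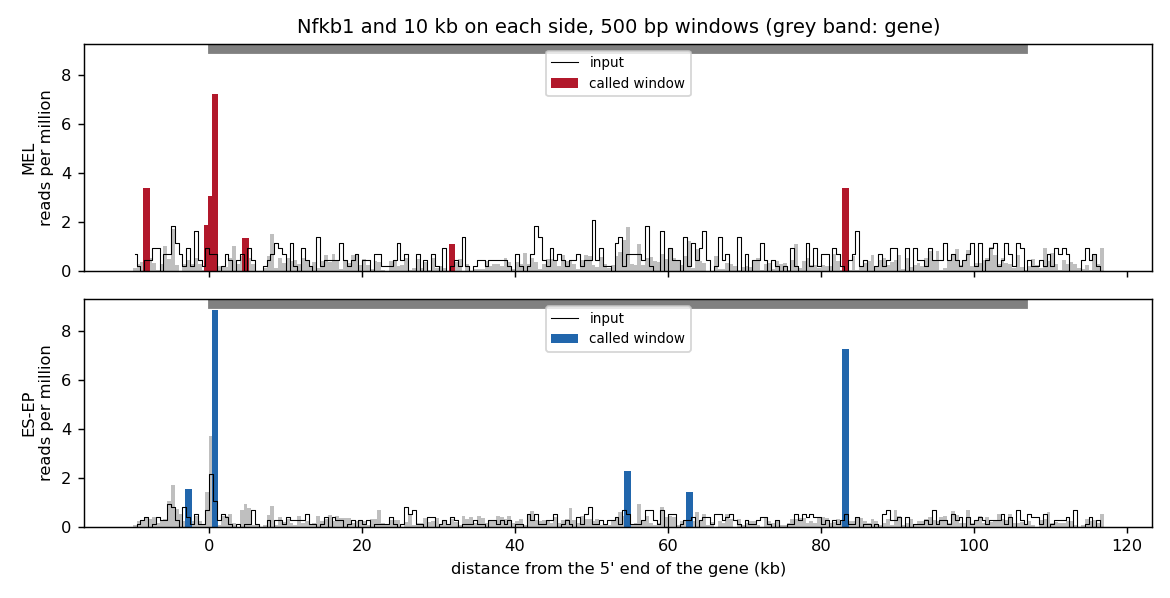
Reads in CPM in 500 bp windows over Nfkb1 and 10 kb on each side, plotted against the distance from the 5' end of the gene. Grey bars are the mean of the 2 ChIP preparations, coloured bars the windows called in MEL cells (red, top) or ES-EP (blue, bottom), and the black line the input; the windows in the 5' intron and on the exon are called in both cell types, the window about 8 kb upstream in MEL cells.

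A window 8240 bp upstream of the nearest Nfkb1 TSS, chr3:135362501-135363000, was the 1 window of the 43 that passed limma for MEL cells against ES-EP. In MEL cells it held 20 and 23 ChIP reads beside 2 input reads. The ES-EP preparations held 2 and 3 ChIP reads there beside 3 input reads. The preparations did not overlap, and ES-EP was at the level of its input. The log2 difference was 2.97 ± 0.77 (limma adjusted p = 0.00595), a call that 6.66% of the 35332 called windows shared in either direction. Windows entered this test because they were called in at least 1 cell type, here in MEL cells. The count and the adjusted p are therefore descriptions. The call was lost when preparation A (adjusted p = 0.0627) or B (0.0598) of MEL cells or preparation A of ES-EP (0.0632) was left out, while the log2 difference stayed between 2.82 and 3.13 in the 4 fits that left out a preparation. Tested as ChIP over input, the difference at the upstream window was log2 2.87 ± 1.33 and did not pass (limma adjusted p = 0.265). None of the 43 windows passed that test, beside 76 of all 35332 called windows. Another Nfkb1 site with the word, 4569 bp downstream of the TSS in an intron, was called in MEL cells only. It held 10 and 7 reads against 0 in MEL cells and 11 and 1 against 1 in ES-EP. This site is printed as the intronic counterpart of the exon site.
Nfkb1 intron, chr3:135349917-135349976, minus strand: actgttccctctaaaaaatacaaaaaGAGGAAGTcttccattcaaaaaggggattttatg

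Around its TSSs, Nfkb1 held 41 and 78 ChIP reads against 12 in MEL input and 97 and 75 against 30 in ES-EP input. These regions include the TSS on the coding exon. The exon window alone held 15 and 29 of the MEL reads and 52 and 44 of the ES-EP reads. The summit in the 5' intron, 644 bp downstream of the TSS, lies outside them, so the values here mix the exon site with the 5' end. The differences from input were log2 1.63 ± 0.72 (limma adjusted p = 0.228) and 1.62 ± 0.60 (adjusted p = 0.155). Over its whole locus the MEL input itself was higher than the ES-EP input (log2 0.99 ± 0.18, adjusted p = 0.00485). Input differed in either direction at 6.23% of all loci, and was higher in MEL cells at 1165 of 22359. MEL input is 1 library, and with the ES-EP inputs summed to 1 sample none of the 9 loci passed this test.

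Among the Nfkb2 promoter windows, chr19:46380001-46380500 in the first part of the gene was called in both cell types, with 15 and 42 ChIP reads against 3 in MEL cells and 45 and 20 against 16 in ES-EP. The 2 windows at the 5'-most TSS were called in ES-EP only, and there MEL input was as high as 12 reads against 9 and 17, or 7 and 23, ChIP reads. Its promoter levels of 7.02 and 15.5 CPM in MEL cells straddled the MEL input at 7.95. Accordingly the difference from input was log2 0.37 ± 0.73 in MEL cells (limma adjusted p = 0.857) and 1.24 ± 0.60 in ES-EP (adjusted p = 0.39). Nfkb2 was the 1 gene of the 9 whose promoter input was higher in MEL cells than in ES-EP. A second word-bearing window of the locus lay in an intron of its neighbour Psd and was called in both cell types, with 21 and 36 reads against 5 in MEL cells and 19 and 10 against 2 in ES-EP.

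Of the windows called in ES-EP only at the Nfkb2 TSS, chr19:46379001-46379500 holds 3 kappaB matches and its neighbour 0. Plus-strand matches lie at chr19:46379188-46379197 and chr19:46379216-46379225. The minus-strand match, chr19:46379189-46379198, overlaps the first of these and was counted separately. The first plus-strand match is printed within chr19:46379163-46379222 as an example of a kappaB match in the gene set.
Nfkb2 kappaB match: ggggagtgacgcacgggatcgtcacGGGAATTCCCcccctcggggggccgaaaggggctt

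Rel (chr11:23641514-23670970, minus strand) encodes c-Rel, a subunit with a transactivation domain that is best known from lymphoid cells. Its promoter region held 48 and 84 ChIP reads against 6 in MEL input and 112 and 70 against 32 in ES-EP input. The MEL preparations stood at 8.42 and 12.02 CPM, with input at 1.40, and the log2 difference of 2.74 ± 0.79 passed the limma test (adjusted p = 0.0429). It was lost with median-ratio scaling (1.96, adjusted p = 0.101), with 250 bp on each side of the TSS (1.82, 0.306), without MEL preparation B (2.49, 0.183) and with the ES-EP inputs summed (2.73, 0.214), and over all alternatives it held in 7 of 15. In ES-EP the preparations stood at 17.8 and 9.87, with input at 4.27, and the difference of 1.58 ± 0.60 did not pass (adjusted p = 0.175). The highest reads lay upstream of the TSS, in chr11:23671001-23671500, where 39 and 83 reads stood against 3 in MEL cells and 94 and 59 against 20 in ES-EP. Its summit lay 491 bp upstream of the TSS and 306 bp from the word in the same window; a further word in an intron lay 18 bp from the summit of a window called in MEL cells only, with 4 and 14 reads against 2. Both stretches are printed to show that the weaker intronic window has the word at its summit and the stronger upstream window does not.
Rel upstream, chr11:23671125-23671184, minus strand: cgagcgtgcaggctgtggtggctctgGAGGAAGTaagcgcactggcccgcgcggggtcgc
Rel intron, chr11:23669785-23669844, minus strand: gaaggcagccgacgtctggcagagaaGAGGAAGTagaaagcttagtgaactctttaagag

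Rela (chr19:5637483-5648130, plus strand) encodes p65, the main transactivating subunit of the canonical dimer. Its promoter regions held 23 and 60 ChIP reads against 5 in MEL input and 93 and 40 against 36 in ES-EP input. ES-EP preparation A, at 14.8 CPM, stood above the other 3, which ranged from 4.04 to 8.59. The difference from input was log2 2.21 ± 0.81 in MEL cells (limma adjusted p = 0.125) and 1.00 ± 0.59 in ES-EP (adjusted p = 0.567). Its TSS window was called in both cell types, with ratios of 6.41 (2.09 to 32.0) and 3.18 (1.94 to 5.49).

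Relb (chr7:20191566-20214787, minus strand), the partner of p52 in the non-canonical branch, had the lowest ratio of pooled ChIP to input reads within 500 bp of its TSS in both cell types. Its promoter held 15 and 31 ChIP reads against 12 in MEL input and 36 and 20 against 28 in ES-EP input, so in each cell type 1 preparation lay above input and 1 below. The difference from input was log2 0.26 ± 0.70 in MEL cells (limma adjusted p = 0.877) and 0.38 ± 0.59 in ES-EP (adjusted p = 0.87). Its TSS window was called in MEL cells at a ratio of 2.50 (0.979 to 8.14) and not in ES-EP, at 1.12 (0.648 to 1.99). With the grid moved by 250 bp Relb had a called promoter window in ES-EP and none in MEL cells, and it had none in MEL cells either without the fragment shift or with the second library of each preparation. The strongest window of the Relb locus belonged to a neighbour: chr7:20189501-20190000, at the TSS of Clasrp, held 36 and 80 reads against 3 in MEL cells and 152 and 82 against 23 in ES-EP.

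Nfkbia (chr12:56590398-56593634, minus strand) encodes IkB-alpha, which is itself induced by NF-kappaB and returns the dimers to the cytoplasm. Only 13 and 32 ChIP reads fell within 500 bp of its TSS in MEL cells, against 5 in input, and 30 and 19 in ES-EP, against 23. Those differences did not pass (log2 1.37 ± 0.80, limma adjusted p = 0.389, and 0.20 ± 0.58, adjusted p = 0.947). Its peak lay farther inside the gene: the summit was 598 bp downstream of the TSS, and the bin from 600 to 700 bp was the highest in all 4 preparations. That window, chr12:56593001-56593500, was called in both cell types, with 23 and 43 reads against 5 in MEL cells and 92 and 32 against 27 in ES-EP. Ratios to input were 4.45 (1.81 to 14.2) and 2.57 (1.68 to 4.06). A kappaB match lies 48 bp from the highest point of the neighbouring window, which was also called in both cell types. That point, chr12:56592996, lies at the edge facing the stronger window and was not shown to be a separate peak. The match is printed for comparison with the matches of Nfkb2 and Tnfaip3.
Nfkbia kappaB match, chr12:56592919-56592978, plus strand: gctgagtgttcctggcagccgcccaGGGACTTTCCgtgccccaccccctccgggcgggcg

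**Figure D4:**
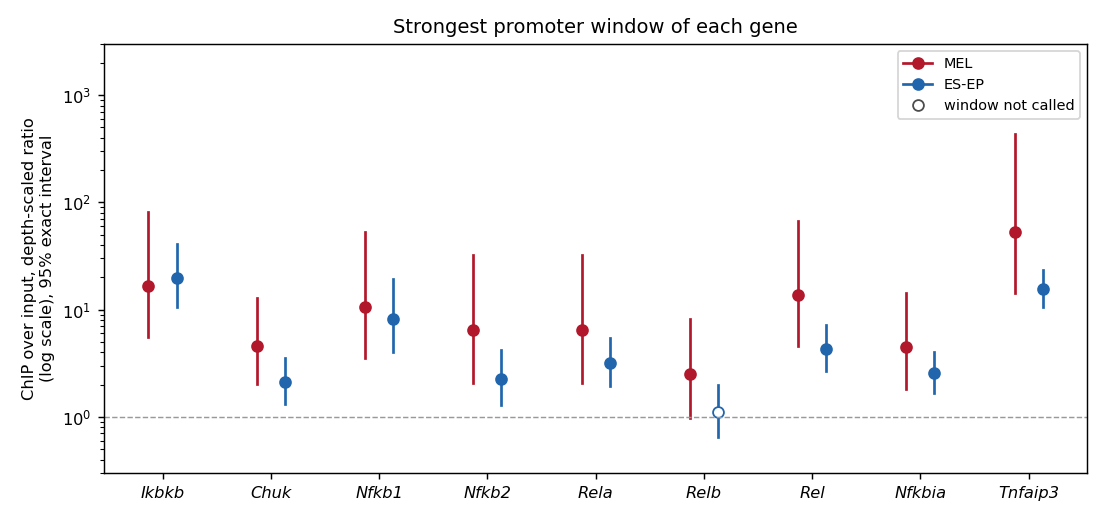
Depth-scaled ratio of ChIP to input reads in the strongest promoter window of each gene, on a log axis, for MEL cells (red) and ES-EP (blue). Each window was picked from the called windows by these same ChIP reads, so the ratios and intervals are descriptions. Bars are exact 95% intervals that cover counting error only, and the open point marks the window not called; Relb in ES-EP lies at 1.12 and Tnfaip3 in MEL cells at 52.4.

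Across the set, all 9 promoters had more depth-scaled ChIP reads than input in the fitted means of both cell types. The median log2 difference was 1.75 for MEL cells and 1.24 for ES-EP, beside medians over all 22359 genes of 0.48 and 0.26. In MEL cells 3 of the 9 promoters rose above input (Ikbkb, Tnfaip3 and Rel), and in ES-EP 2 of 9 (Ikbkb and Tnfaip3). Among all promoters 1.34% did so for MEL cells and 2.51% for ES-EP. The counts were 6 of 9 and 5 of 9 by the p before adjustment (below 0.05), beside 3539 and 2569 of the 22359 promoters. These calls depend on how the inputs enter the fit. With the 2 ES-EP input libraries summed to 1 sample, none of the 9 promoters passed in either cell type, 6 and 3 of 9 had an unadjusted p below 0.05, and the test passed for 0 of 22359 promoters in MEL cells and for 1 in ES-EP. Without MEL preparation B only Ikbkb passed in MEL cells, and without MEL preparation A Rela passed as well. With median-ratio scaling the medians of all genes fell to -0.32 and -0.19 and those of the 9 genes to 1.0 and 0.78; Nfkb2 and Relb then lay below input in MEL cells, and Relb and Nfkbia in ES-EP. That scaling also turned the calls over all promoters in MEL cells from 300 higher and 10 lower to 167 higher and 299 lower, and in ES-EP from 562 higher and 14 lower to 698 higher and 74 lower.

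No promoter of the 9 passed the limma test of MEL cells against ES-EP, which 0.228% of all promoters passed. The log2 differences (MEL cells minus ES-EP) ran from -1.25 ± 0.66 at Tnfaip3 and -1.0 ± 0.66 at Ikbkb to -0.14 at Nfkb2, with a median of -0.40, beside -0.20 over all genes. Their lowest limma adjusted p was 0.596, and 0 of 9 had an unadjusted p below 0.05, compared with 1936 of 22359 genes. All 9 were lower in MEL cells as fitted, but 4 of 9 were higher with median-ratio scaling, which moved the median of all genes to 0.05, and 6 of 9 were higher without ES-EP preparation A. At Tnfaip3 the preparations of 1 cell type lay as far apart as the cell types, with ES-EP A at 92.4 CPM, ES-EP B at 35.2 and MEL B at 35.5. With at most 1 read per position the log2 difference at Tnfaip3 was -0.94 ± 0.61 and did not pass either (limma adjusted p = 0.684).

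The difference between cell types in ChIP over input was also tested directly. None of the 9 promoters passed (lowest limma adjusted p = 0.984), and 0% of the 22359 promoters did, although 1201 had an unadjusted p below 0.05. Input moved with this comparison. At 8 of the 9 promoters the MEL input was lower than the ES-EP input, with a median log2 difference of -1.15 beside -0.32 over all genes, and none of these passed (lowest adjusted p = 0.23). MEL input is 1 library, so its spread was taken from the other groups, and the part of input in the higher MEL ratios was not tested.

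Over whole loci, 1 of the 9 genes differed between the cell types, beside 11.7% of all loci. Tnfaip3 held 193 and 354 ChIP reads against 84 in MEL input and 701 and 405 against 181 in ES-EP input, and was lower in MEL cells by limma (log2 -0.90 ± 0.26, adjusted p = 0.0389). The call was lost without MEL preparation A (log2 -0.64), when the locus that passed was Nfkb2 (0.64, higher in MEL cells), and without ES-EP preparation A (-0.43), when it was Nfkb1 (0.47, higher in MEL cells). It was also lost with the gene body alone (-1.07, adjusted p = 0.0661) and with the ES-EP inputs summed (-0.90, adjusted p = 0.145). Tested as ChIP over input, the difference at this locus was log2 -0.63 ± 0.55 and did not pass (limma adjusted p = 0.969), as for all 22359 loci, of which 783 had an unadjusted p below 0.05. The other 8 loci ranged from -0.47 at Ikbkb to 0.32 at Nfkb2.

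The sequences under the called windows were compared with those of the genome, counting each word on both strands within a 500 bp window. GAGGAAGT occurred in 7 of the 43 called windows of the 9 genes (16.3%), in 20.7% of all called windows and in 3.01% of all windows of the genome. Its shorter form GAGGAA, which every GAGGAAGT contains, occurred in 58.1%, 56.4% and 39.3%. Near promoters the word was rarer in general: of called windows within 2 kb of any TSS it occurred in 7.92%, and in 4 of 27 (14.8%) at these genes. Of those 27 windows, 5 lie at the TSS of a neighbouring gene, including a window at Erlin1 with a kappaB match. Unlike the word, the kappaB consensus was more frequent in called windows near a TSS than in those farther away (9.20%). It matched 13 of the 27 called windows within 2 kb of a TSS at these genes (48.1%), 20.7% of all called windows that near a TSS and 9.75% of all windows there, called or not. Of called windows anywhere it matched 13.9%. Each of the genes had at least 1 match in a called window, with the exception of Ikbkb. The median GC content was 62.8% in those 27 windows and 64.8% in all called windows near a TSS. Several of the genes are known NF-kappaB targets. Whether their kappaB matches go with PU.1 occupancy was not tested, and a match is a string of letters, not a measured site.

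Outside the 9 genes, 63 further genes of the pathway were grouped into 5 roles. A promoter window was called at 39 of them in MEL cells, at 30 in ES-EP and at 25 in both, beside the 41.1%, 24.6% and 20.3% of all genes. The IkB family and other inhibitors had a called promoter window at 12 of 12 genes in MEL cells and at 5 in ES-EP. Adaptors and ubiquitin ligases had one at 13 of 19 genes in each cell type, and 12 of these were shared. The other kinases and their binding partners had one at 5 of 8 genes in MEL cells and 2 in ES-EP. Known target genes had one at 6 and 8 of 15. Receptors had one at 3 and 2 of 9, with no gene called in both cell types.

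**Figure D5:**
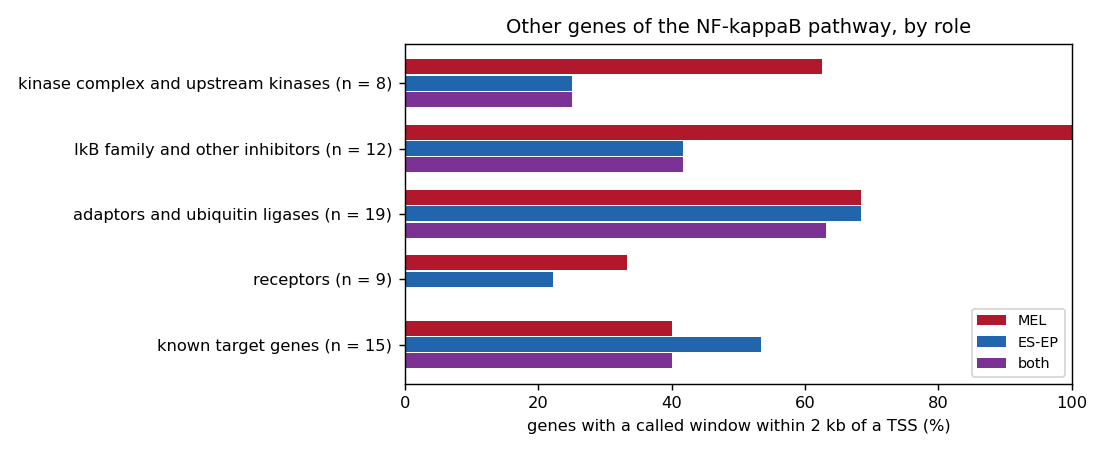
Share of the other pathway genes with a called window within 2 kb of a TSS, by role, in MEL cells (red), in ES-EP (blue) and in both (purple). The inhibitors reach 12 of 12 genes in MEL cells, and no receptor is called in both cell types.

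Among these 63 genes 2 promoters rose above input in MEL cells and 4 in ES-EP by limma, beside 1.34% and 2.51% of all promoters. With the ES-EP inputs summed none of these passed in MEL cells, and 1 promoter of all genes passed in ES-EP. Traf3, an adaptor that restrains the non-canonical branch, rose in both, with 68 and 153 ChIP reads against 7 in MEL cells (log2 3.21, adjusted p = 0.00961); the ES-EP preparations held 319 and 143 reads there against 47 (2.56, adjusted p = 0.0033). Malt1, the paracaspase that links antigen receptors to the pathway, rose in MEL cells, with 30 and 105 reads against 3 (3.45, adjusted p = 0.0227). In ES-EP, Irak1, a kinase downstream of Toll-like receptors, rose with 238 and 99 reads against 24 (2.93, adjusted p = 0.000496), and the target gene Junb with 210 and 125 against 27 (2.73, adjusted p = 0.00132). Birc3, a ubiquitin ligase, was the fourth (2.54, adjusted p = 0.034). Of the inhibitors with a window in both cell types, Nkiras2, Nfkbiz and Nfkbid had the most reads, and none passed against input. Nkiras2, which slows the breakdown of IkB proteins, held 44 and 70 reads against 22 in MEL cells and 94 and 69 against 40 in ES-EP. Among the kinases and their partners, Tab2, an adaptor that binds the kinase encoded by Map3k7, held 21 and 51 reads against 5 in MEL cells and 68 and 43 against 48 in ES-EP, and Map3k7 held 9 and 40 against 2 and 63 and 42 against 37. Among target genes, Bcl2l1 and Sod2 followed Junb without passing. No promoter of the 63 passed the limma test of MEL cells against ES-EP, which 0.228% of all promoters passed.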

How the data were processed

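PU.1 ChIP and input DNA of MEL cells and ES-EP were read on an Illumina sequencer. As the authors describe it, reads were mapped to mm9 with the Illumina pipeline, and uniquely placed reads were kept; the deposited files list 1 such read per line, with its position and strand. No peak table was used here, and the deposited reads carry no normalized values. The mm9 build is also named in the submitters' processing notes; 2000 reads of each library on chromosome 19 matched NCBIM37, the same sequence, at 99.95% or more.

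Reads were counted in 500 bp windows and tested with a one-sided exact Poisson test against a local rate, the highest of 4 input rates scaled to ChIP depth (the window itself, the surrounding 5 kb, the surrounding 10 kb, the whole genome), with at most 1 read per position, strand and library, and Benjamini-Hochberg adjustment over all windows with a ChIP read. Genes, TSSs of protein-coding transcripts and features came from GENCODE M1. Reads around TSSs, over loci and in called windows, all reads included, were fitted with limma 3.58.1 (voom weights, R 4.3.3) on 4 ChIP preparations and 3 input libraries in 4 groups, two-sided, adjusted over all genes or windows. Nothing in the labels says that libraries 1 and 2 of a preparation are separate cultures, so they were summed, and the 2 preparations are the replicates. The 2 ES-EP inputs carry the same kind of number but entered as 2 samples, so p-values measure the spread between preparations and between these inputs. Depth-scaled ratios carry exact Clopper-Pearson 95% intervals, and a floor of 3 counts stood for an input of 0. Both cover counting error only, since reads carry no molecular identifiers. The ratios use all reads, so the intervals treat reads at a repeated position as separate. Where a window was called or ranked by its ChIP reads, its ratio is a description.

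The 9 genes, the pathway list, its roles and the tests were chosen with earlier results of these data known. Named were all 9 genes with their strongest promoter window and the strongest windows elsewhere, and, by role, up to 3 pathway genes with a window in both cell types and the most reads; any other gene or site was named after its values were seen. Letters A and B were not used as pairs, since the deposited ES-EP ChIP files are lettered C and D and a shared letter is only a name: A minus B differences in MEL cells and ES-EP correlated at r = -0.21 across 16532 promoters. Sequences were read from NCBIM37, and matched by Python 3.11.15 scripts.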

Additional observations from a re-analysis of the deposited data

How the results depend on the processing

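The alternatives changed the reads, the scaling, the test, the window or promoter width, and the libraries, and none of the 9 single-site differences followed through them (Ikbkb, Tnfaip3 and Rel promoters, the Tnfaip3 locus, the upstream Nfkb1 window) reversed; other promoters did, as given above for median-ratio scaling and without ES-EP preparation A. Requiring each preparation to pass alone left 13 called windows for MEL cells and 9 for ES-EP, where 5 genes had a promoter window. With the first library of each preparation, all dated to 1 month in the deposited names, there were 19 and 13 windows and again 5 genes in ES-EP. Leaving out a preparation gave 13 to 35 windows and 6 to 9 genes in MEL cells, and 10 to 26 windows and 5 to 8 genes in ES-EP. Promoters above input fell to 0 for MEL cells and 0 for ES-EP when limma was run on log2 of CPM plus 0.5 or plus 2, where 4 or 5 of the 9 had an unadjusted p below 0.05. They rose to 4 in ES-EP with median-ratio scaling and with 2 kb on each side of a TSS, and ranged from 1 to 4 in MEL cells and stayed at 2 in ES-EP with a preparation left out. Loci differing between the cell types numbered 0 with at most 1 read per position, on both log2 scales, with the first library and over the gene body without flanks, 2 with each library as a sample, and 1 to 2 with a preparation left out (Nfkb2 in place of Tnfaip3 without MEL preparation A, Nfkb1 without ES-EP preparation A). Differing windows numbered 3 with median-ratio scaling and 0 to 3 with a preparation left out, 3 of them without ES-EP preparation B. The count of promoters differing in either sense was 0 of 9 with every preparation left out in turn. Over the whole genome, called windows ranged from 7358 to 36314 in MEL cells (26542 as reported) and from 4992 to 27487 in ES-EP (18511). Promoters above input ranged from 0 to 977 in MEL cells (300) and 0 to 762 in ES-EP (562), differing promoters from 0 to 595 (51), promoters differing in ChIP over input from 0 to 26 (0), differing loci from 953 to 3320 (2611) and differing windows from 524 to 4827 (2352), before the crossed pairing named next. The causes were not tested.

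With the 2 ES-EP inputs summed to 1 sample, added after seeing the data, promoters above input fell to 0 in either cell type and differing loci to 0, and 1 window still differed.

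The ES-EP ChIP files are lettered C and D, so the letters below are names and no pairs. With the preparation letter as a replicate block, which drops the inputs, 0 member promoters, 0 loci and 1 window differed, and 2 promoters of all genes. Since the letters correlated negatively, the crossed pairing was added after seeing the data: 2 promoters, 2 loci and 3 windows of the 9 genes then differed, of 1480 promoters in all.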
